A study of Mus musculus with 8 samples.

Results

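The JAK kinases and STAT factors are the enzymes and transcription factors that carry cytokine signals from receptors at the cell surface to the nucleus. The members were the JAK and STAT genes chosen for description by symbol from the probes of an immune gene panel, and comprised 9 of its 750 immune genes: the kinases Jak1, Jak2, Jak3 and Tyk2, and the factors Stat2, Stat3, Stat4, Stat5b and Stat6. RNA was measured in whole peritoneal tumors grown from MC38 cells, a mouse colon carcinoma line, in wild-type male C57BL/6 mice of 7 to 8 weeks. The STING group of 4 tumors received the STING agonist RR-CDA by intraperitoneal injection, 2 injections of 15 µg from day 7, with collection 10 days after the first injection. The control group of 4 tumors received PBS by the same route. The comparison asked whether RNA levels of the JAK-STAT machinery differed with STING agonist treatment.

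A cytokine that binds its receptor brings together the JAK kinases held on the receptor tails, which then phosphorylate the receptor and the STAT proteins that dock there. Phosphorylated STATs pair up, enter the nucleus and bind DNA, and type I interferon in particular acts through JAK1 and TYK2 to form a complex of STAT proteins with IRF9 that drives antiviral genes. STING, a sensor of cytosolic DNA products, induces type I interferon, and SOCS proteins made in response to cytokines switch the pathway off.

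Each tumor was read on the NanoString nCounter platform, which counts barcoded probes bound to RNA. Total counts over the 750 genes ran from 241724 to 403150 in the control tumors and from 241506 to 414698 in the STING tumors. Levels below are counts divided by the geometric mean of 20 housekeeping genes, called normalized counts. Control 2 and control 4 differed by less than the sampling noise, with a chi-square per degree of freedom of 0.404 over 358 genes against 5.89 to 12.6 in the other 11 pairs within a group. They were averaged and counted as 1 sample, which left 3 control and 4 STING samples. The sources used here do not tie each sample to its own mouse, so p-values measure the spread between these samples, which may be technical in part. The samples came from 2 experiments that the study pooled, and the labels do not say which sample belongs to which. No term for the experiment could therefore be fitted, and its part in the spread and in the p-values was not tested. STING 4 stood apart in liver transcripts: the sum of 5 measured hepatocyte markers was 1045 normalized counts there and 17.4 to 43.2 in the other samples. Counts of genes past a threshold are therefore also given without STING 4. Leaving out each sample in turn was planned, and giving this one beside the counts was chosen after seeing the data. Counts of genes whose groups did not overlap are given over all 7 samples. Leaving out a sample cannot make separate groups overlap, but it can separate groups that overlapped. Over the panel, 126 genes had all STING samples above all controls over all 7 samples, 134 without STING 1 and 235 without control 3. Among the pathway genes described below these numbers were 14, 14 and 28.

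Across the panel, edgeR's quasi-likelihood test called 0 of 750 genes (0%) at an adjusted p under 0.05. At an unadjusted p under 0.05 it found 143 genes (19.1%), of which 133 (17.7%) were higher and 10 (1.33%) lower in STING agonist-treated tumors. The Wald test of DESeq2 called 52 genes after adjustment, limma 0 and the methods' test 0. The count at an unadjusted p under 0.05 was 84 without STING 1 and 89 without STING 4. Over the whole panel the middle (median) log2 fold change was 0.21 with housekeeping scaling (0.16 to 0.36 with a sample left out) and -0.02 with TMM scaling, so values for members are also given relative to the panel median. With TMM scaling the split was 87 higher and 40 lower.

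Of the 9 members, 1 (11.1%) passed an unadjusted p of 0.05 in edgeR, against 19.1% of all genes, and 0 passed after adjustment by edgeR, by the Wald test of DESeq2, by limma or by the methods' test. The member was Stat2, which was higher in the STING group. Stat2 was also the only member whose groups did not overlap, 1 of 9 (11.1%), while 126 of 750 genes (16.8%) had all STING samples above all control samples and 11 (1.47%) had them all below. Without STING 3 it was 2 of 9 members (22.2%), with Jak2 apart too, beside 26.1% of the panel apart in either direction. With 9 members, 1 gene more or less moves the share by 11.1 percentage points, so neither count sets the members apart from the panel. With TMM scaling the median log2 fold change of the members was -0.18, against -0.02 over all genes. With housekeeping scaling it was 0.06, against 0.21, and 0.02 without control 1 or STING 3 and 0.10 without control 3, with 2 members above the panel median and 7 below it over all 7 samples. The member count was 1 without STING 4, 0 without STING 1, 0 without the averaged control, and 2 without STING 3, where Jak2 passed too. With TMM scaling the count was also 1, but the member was Stat3, lower in the STING group, and with total-count scaling or positive-control scaling the count was 0.

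**Figure D1:**
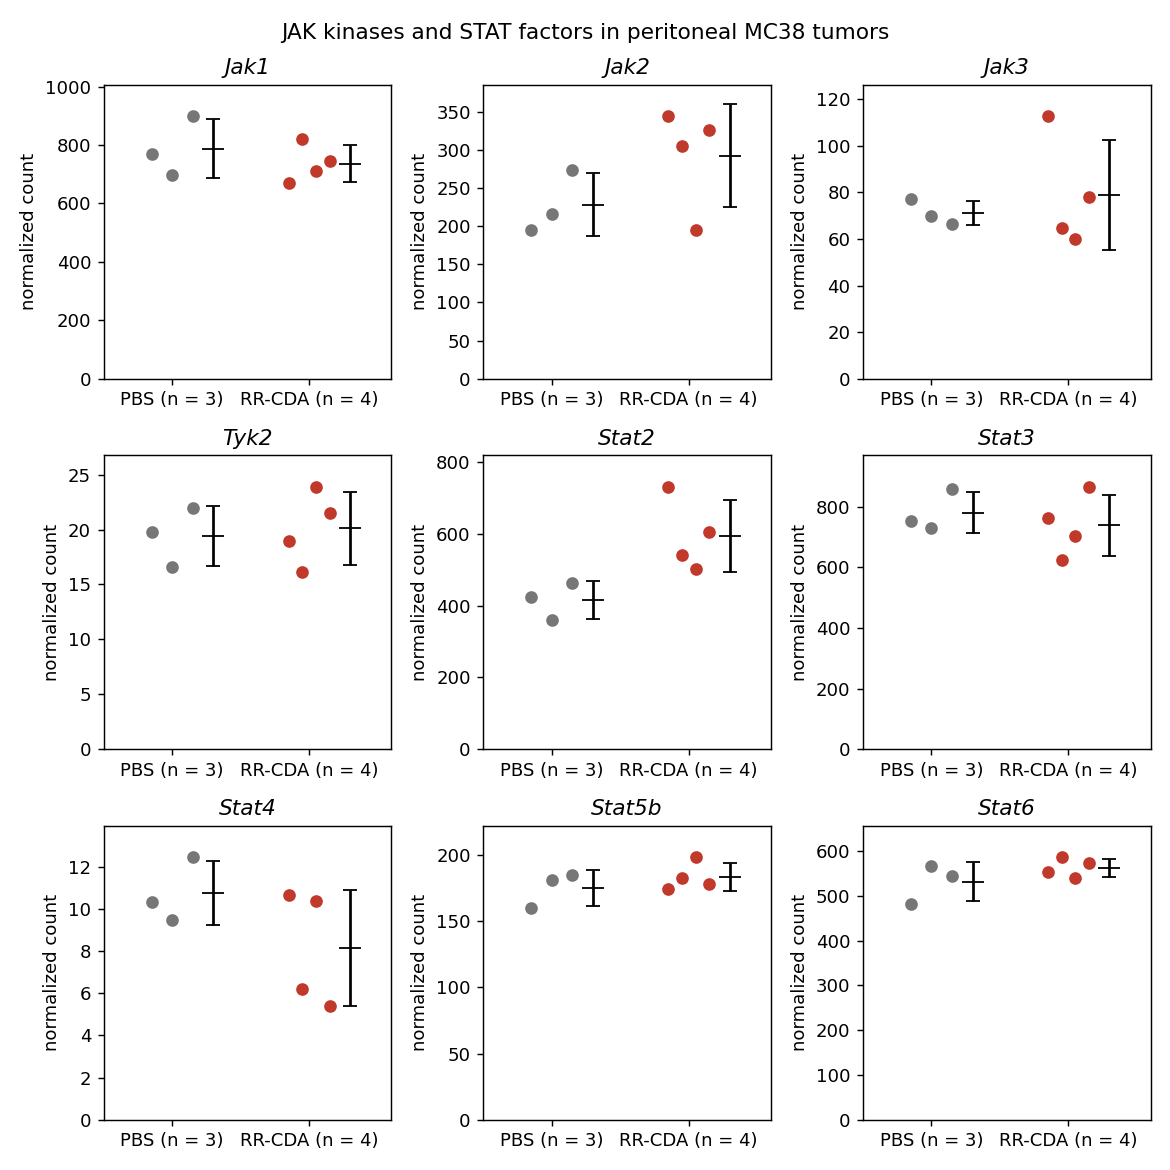
Normalized counts of each member (vertical axis, starting at 0) in the 3 PBS samples (grey) and the 4 RR-CDA samples (red), with the mean and SD beside the points. Stat2 is the panel in which all red points, from 502.6 to 731, lie above all grey points, from 359 to 462.

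Among the kinases, Jak1, which serves interferon, gp130 and common gamma chain receptors, had normalized counts of 769 in control 1, 696 in the mean of controls 2 and 4, and 898 in control 3. In STING samples 1 to 4 Jak1 was 669, 820, 712 and 746. The groups overlapped, with STING 1 the lowest of the 7 samples and control 3 the highest. Jak1 averaged 788 ± 102 (SD, n = 3) in control and 737 ± 63.6 (SD, n = 4) in STING samples. The log2 fold change of Jak1 was -0.10 (SE 0.15, 95% interval -0.43 to 0.24), 0.31 below the panel median, with an adjusted p = 0.804.

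Jak2, the kinase of the IL-12, interferon gamma and common beta chain receptors, was at 195, 216 and 274 normalized counts in the same 3 control samples. The STING samples held 344, 306, 195 and 326 normalized counts of Jak2. STING samples 1, 2 and 4 lay above every control sample, while STING 3 lay level with control 1, so the groups overlapped. Jak2 had a log2 fold change of 0.36 (SE 0.23, 95% interval -0.17 to 0.88), 0.14 above the panel median, with an adjusted p = 0.432. Without STING 3 the unadjusted p of Jak2 was 0.0308, where the value over all 7 samples was 0.156.

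Jak3, which pairs with the common gamma chain in lymphocytes, gave 77.1, 69.9 and 66.6 normalized counts in control samples. In the STING group Jak3 gave 113, 64.6, 60.2 and 78.0 normalized counts. STING 1 was the highest sample, and STING 2 and STING 3 were the lowest, below all controls. The SD of Jak3 was 5.36 in control (n = 3) and 23.8 in STING samples (n = 4). For Jak3 the log2 fold change was 0.15 (95% interval -0.47 to 0.76), and the sign turned without STING 1, to -0.07, and under TMM scaling, to -0.12.

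Tyk2, the partner of JAK1 at the type I interferon receptor, was read at raw counts of 10 to 30, the level at which counting noise is large. Its normalized counts were 19.7, 16.6 and 22.0 in control and 19.0, 16.2, 23.9 and 21.5 in STING samples. The highest and the lowest sample were both in the STING group, and the log2 fold change was 0.05 (95% interval -0.64 to 0.74). Under TMM scaling the value was -0.18.

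Stat2 is the STAT that joins IRF9 downstream of type I interferon, and its own gene is known as interferon-inducible. Its promoter is shown because Stat2 is the member with separate groups, next to the promoter of Bst2, the gene whose profile over the 7 samples was nearest to it. The sequences are the 250 bases before the RefSeq start in build GRCm38.p6, read 5′ to 3′ on the gene's strand, from chr10:128270248-128270497 (plus strand) for Stat2 and chr8:71537473-71537722 (minus strand) for Bst2. Capitals mark the letters GAAANNGAAA or, on the other strand, TTTCNNTTTC, the core of the interferon-stimulated response element.
Stat2: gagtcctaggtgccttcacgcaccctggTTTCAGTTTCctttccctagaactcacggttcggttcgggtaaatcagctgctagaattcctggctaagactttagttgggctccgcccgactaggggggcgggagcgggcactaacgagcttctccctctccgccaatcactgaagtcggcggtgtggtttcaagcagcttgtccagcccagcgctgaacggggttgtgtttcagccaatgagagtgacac
Bst2: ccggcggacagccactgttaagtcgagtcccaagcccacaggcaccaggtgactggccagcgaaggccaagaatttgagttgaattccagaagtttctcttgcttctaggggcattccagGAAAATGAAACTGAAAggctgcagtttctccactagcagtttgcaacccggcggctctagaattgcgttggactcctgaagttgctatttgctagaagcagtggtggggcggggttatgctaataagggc
The match in Stat2 began 222 bases before the start, and the matches in Bst2, which overlap each other, began 130 and 124 bases before it. Of 32851 RefSeq promoters of this length, 978 (2.98%) held the motif. All 9 members matched the table, with 11 promoters, and 2 genes held it: Stat2 and Stat4, the latter 97 bases before 1 of its 2 starts. The letters TTCNNNGAA, the core of a site bound by STAT pairs and the same on both strands, were in 2306 promoters (7.02%) and in 0 of the 11 promoters of members. The Bst2 promoter shown holds them, not marked by capitals as such, beginning 136 bases before the start. STAT sites with another spacing were not searched. A match describes letters in the window and no binding was measured.

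Normalized counts of Stat2 were 425 in control 1, 359 in the mean of controls 2 and 4, and 462 in control 3. They were 731, 540, 502.6 and 606 in STING samples 1 to 4. Every STING sample exceeded every control sample, with STING 1 the highest and STING 3 the nearest to the controls. Stat2 averaged 415 ± 52.2 (SD, n = 3) in control and 595 ± 100.3 (SD, n = 4) in STING samples, a ratio of 1.43. The log2 fold change was 0.52 (SE 0.18, 95% interval 0.11 to 0.92), 0.30 above the panel median, with an unadjusted p of 0.0176 and an adjusted p = 0.203 in edgeR. In bulk tumor RNA, a change in the share of a cell type and a change in RNA per cell cannot be told apart. Stat2 was higher in the STING group in all 22 alternatives run, with log2 fold changes from 0.26 to 0.60. Its unadjusted p was above 0.05 in 6 of the 21 that carried a test, at 0.111 under TMM scaling, 0.0507 without STING 1 and 0.0532 without the averaged control among them, and adjusted p-values ran from 0.0756 to 0.481.

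Stat3, the factor of IL-6 and IL-10 family cytokines, had 753, 732 and 858 normalized counts in control and 762, 625, 705 and 866 in STING samples. The groups overlapped throughout, with both STING 2 and STING 3 below the controls and STING 4 just above them. Its log2 fold change was -0.08 (SE 0.15, 95% interval -0.43 to 0.27), 0.29 below the panel median. With TMM scaling the value was -0.33 with an unadjusted p of 0.0470 and an adjusted p = 0.284, so Stat3 passed or missed the unadjusted threshold according to the scaling.

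Stat4, the factor of IL-12 signaling in T and NK cells, was near the floor of the assay. Its raw counts were 5 to 17 in the 8 tumors, and 4 of the 7 samples exceeded their own background, set at the mean plus 2 SD of 8 negative control probes. Normalized counts were 10.3, 9.48 and 12.4 in control and 10.7, 6.21, 10.4 and 5.38 in STING samples. STING 2 and STING 4 were the low samples, and the interval of the log2 fold change, -1.24 to 0.42 around -0.41, spans both directions, so no difference was detectable at this depth.

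Stat5b, a factor of IL-2, IL-7 and growth hormone signals, had 160, 181 and 185 normalized counts in control and 174, 183, 198 and 178 in STING samples. Stat6, the factor of IL-4 and IL-13, had 483, 567 and 545 in control and 553, 586, 541 and 573 in STING samples. Both were narrow in spread and overlapped between groups. The SD was 13.7 and 10.5 for Stat5b, and 43.5 and 20.2 for Stat6, in control (n = 3) and STING samples (n = 4). Their log2 fold changes were 0.06 (95% interval -0.29 to 0.42) for Stat5b and 0.08 (95% interval -0.22 to 0.38) for Stat6. Both signs turned under TMM scaling, to -0.18 for Stat5b and -0.17 for Stat6.

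**Figure D2:**
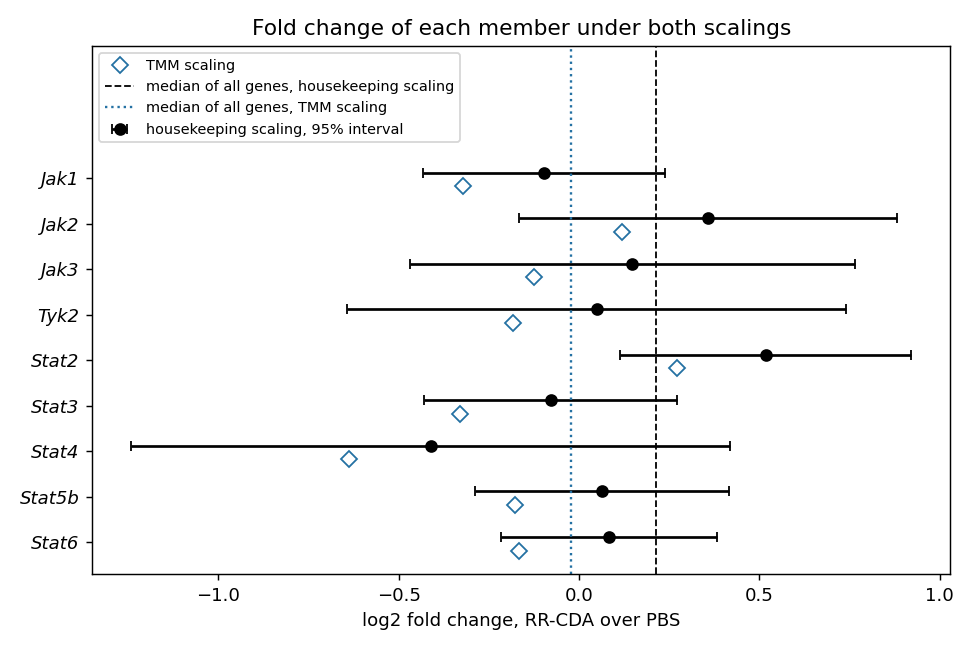
Log2 fold change of each member, RR-CDA over PBS (horizontal axis), with housekeeping scaling (black, 95% interval) and TMM scaling (blue diamonds), and vertical lines at the median of all genes under each. Housekeeping scaling puts the panel median at 0.21 and TMM scaling at -0.02, and Stat2 (0.52 and 0.27) lies to the right of both lines.

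A ratio of members within a tumor needs no scaling between tumors, so ratios of raw counts were compared for all 36 pairs. The ratio of Stat2 to Stat3 was 0.564, 0.490 and 0.538 in control and 0.960, 0.865, 0.713 and 0.700 in STING samples. All STING ratios exceeded all control ratios. The log2 difference of group means was 0.60, with a two-sided exact permutation p of 0.0286, the smallest that 3 against 4 samples can give, and 0.514 after adjustment over the 36 pairs. No pair passed after adjustment, for which at least 21 of the 36 pairs would have to reach that smallest p, and 1 pair had an unadjusted exact p under 0.05. Groups did not overlap in 4 pairs over all 7 samples, those of Stat2 with Jak1, Stat3, Stat4 and Stat6. The count was 14 without STING 3, 9 without the averaged control and 7 without control 1. Each of these held pairs without Stat2, and without STING 3 several were pairs of Jak2. Stat4 did not exceed its own background in 3 of the 7 samples, and with the negative control mean subtracted 3 pairs did not overlap, those of Stat2 with Jak1, Stat3 and Stat6.

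Against Jak1 the ratio of Stat2 was 0.553, 0.515 and 0.514 in control and 1.09, 0.659, 0.706 and 0.812 in STING samples, with an exact permutation p of 0.0571. The mean ratio of Stat2 to each of the other 8 members was higher in the STING group, by log2 differences of 0.17 against Jak2 to 0.60 against Jak1 among the 7 members other than Stat4, for which counts at or near background allow no exact difference. The ratio to Jak2 overlapped between groups, with 1 of 4 STING samples above all controls and an exact permutation p of 0.400.

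**Figure D3:**
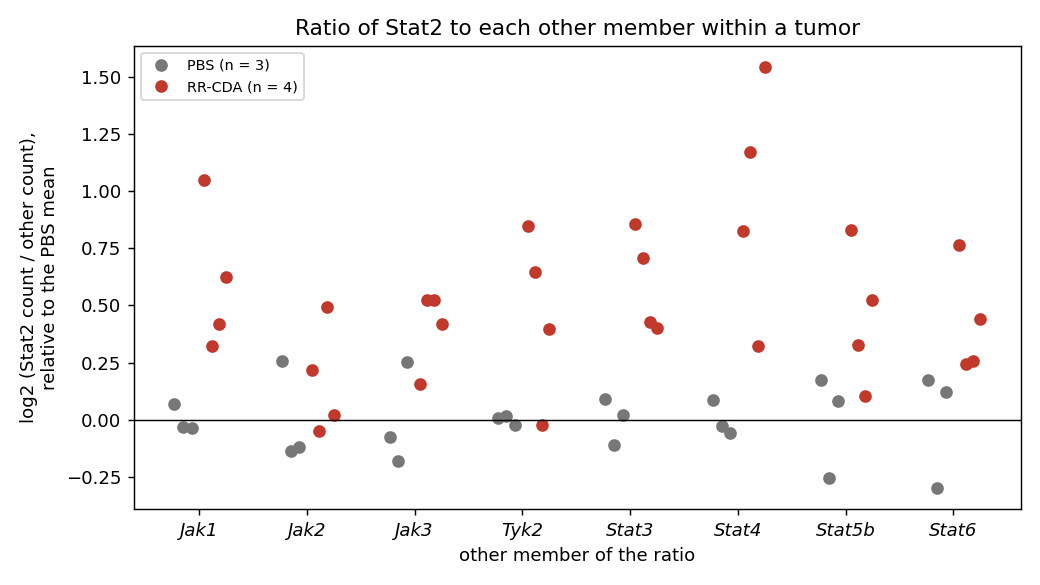
Log2 ratio of the Stat2 count to the count of each other member (horizontal axis) within a tumor, relative to the mean of the 3 PBS samples (grey), for the 4 RR-CDA samples (red). All red points lie above all grey points for Jak1, Stat3, Stat4 (at or under background in 3 of the 7 samples) and Stat6, and they mix for Jak2, where the log2 difference of means was 0.17.

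For the 8 members with a mean of at least 20 raw counts, which leaves out Stat4, the most similar gene was sought among 510 panel genes outside the JAK and STAT families, by the root mean square difference of centred log2 profiles over 7 samples. For Stat2 it was Bst2, the antiviral membrane protein tetherin, at a difference of 0.117 against a median of 0.366 over all candidates. Bst2 had 4033, 4425 and 4541 normalized counts in control and 7472, 5522, 4877 and 5958 in STING samples, in the same order of STING samples as Stat2. For Jak2 the nearest was Fadd at 0.166 and for Jak3 it was Cd3d, a subunit of the T cell receptor complex, at 0.156. The others were Jam3 for Jak1 (0.0870), Ikbkg for Tyk2 (0.102), Abl1 for Stat3 (0.0486), Smn1 for Stat5b (0.0546) and Anp32b for Stat6 (0.050). The SD of the member's own profile was 0.14, 0.18, 0.15, 0.087 and 0.084 in that order, and 0.31 for Stat2. Between nearly flat profiles a small difference shows little shared pattern.

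Around the members, 88 of 116 listed receptors, ligands, inhibitors and targets of the pathway were measured. In edgeR 15 of these passed an unadjusted p of 0.05 in the upward direction and 1 in the downward direction, together 18.2% against 19.1% of the panel, and 0 after adjustment. With TMM scaling the split was 4 higher and 2 lower. Their median log2 fold change was 0.25 beside 0.21 over all genes, 0.18 to 0.46 with a sample left out, and 0.03 with TMM scaling. The count of 16 was 10 without STING 4, 5 without STING 1, 9 without control 1 and 10 without the averaged control. It was 8 with the methods' test and 25 with all 8 tumors as separate samples.

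The interferon receptors held 0 of 3 genes past an unadjusted p of 0.05, with a median log2 fold change of 0.11, or -0.14 with TMM scaling. The count was 1 with the methods' test and with all 8 tumors as separate samples, and the gene was Ifngr1. Ifngr1, a chain of the interferon gamma receptor, was separate between groups, at 501, 448 and 463 normalized counts in control and 571, 535, 557 and 556 in STING samples. Its log2 fold change was 0.24 (95% interval -0.05 to 0.53), 0.02 above the panel median, and it turned to -0.01 with TMM scaling. Its unadjusted p was 0.0983 in edgeR, 0.00317 with the methods' test and 0.0422 with all 8 tumors. Ifnar2, a chain of the type I interferon receptor, stood at -0.04 (95% interval -0.36 to 0.27).

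Of 8 common gamma chain and IL-4/IL-13 receptor genes, 1 was higher, with a list median of 0.22, 0.14 to 0.43 with a sample left out and -0.01 with TMM scaling. Il7r, the IL-7 receptor of lymphocytes, had 8.46, 14.2 and 26.4 normalized counts in control and 78.3, 24.8, 23.9 and 55.6 in STING samples. STING 1 and STING 4 were high, and STING 2 and STING 3 fell within the control range. Il7r had a log2 fold change of 1.46 (SE 0.57) with an adjusted p = 0.223, while Il2ra was at -0.20 (95% interval -0.75 to 0.34). The unadjusted p of Il7r, 0.0301 over all 7 samples, was 0.0545 without STING 4, 0.0842 without STING 1, 0.102 without control 1, 0.0730 without the averaged control and 0.1295 with the methods' test, and the list then held 0 genes past the threshold. It held 2 without STING 2, STING 3 or control 3.

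Of 8 gp130, IL-10 and IL-12 family receptor genes, 4 were higher and 0 lower, with a list median of 0.48 (0.35 to 1.10 with a sample left out), and in these 4 the groups did not overlap, beside 17.7% of the panel called higher and 16.8% with all STING samples above all controls. One of the 4, Il12rb2, had a mean of 5.43 raw counts, under the background of 8.44. The count of 4 was 1 without STING 4, 0 without STING 1, 0 without the averaged control, 1 without control 1, 2 without STING 2 or STING 3, and 1 with the methods' test. With TMM scaling 0 of the 8 passed the unadjusted threshold and the list median was 0.27. Il10ra, the ligand-binding chain for IL-10, had 44.2, 15.4 and 42.5 normalized counts in control and 76.0, 48.4, 51.9 and 91.4 in STING samples. Its log2 fold change was 0.96 (SE 0.42, adjusted p = 0.250). The remaining genes past the threshold were Il6st and Il12rb1, named after their values were seen. Il6st, which encodes gp130, was 0.49 (SE 0.21), and Il12rb1, a chain of the IL-12 and IL-23 receptors, was 0.88 (SE 0.36). Il6ra showed the smallest log2 fold change of the list among genes with a mean of at least 20 counts, 0.21 (95% interval -0.38 to 0.81).

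The common beta chain and G-CSF receptors held 0 of 4 genes past the unadjusted threshold, with a median of 0.69. The count was also 0 without STING 4, 1 in 7 of 21 alternatives and 2 without control 3. The median was 0.36 without the averaged control, 0.40 without STING 1 and 1.07 without control 3. Csf3r, the G-CSF receptor of neutrophils, was at 0.82 (95% interval -0.51 to 2.15) and Csf2rb, the shared beta chain, at 0.58 (95% interval -0.36 to 1.53).

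Among 27 cytokines that signal through JAKs, 3 were higher and 0 lower. Of these genes 15 were at or under background and 6 had a mean of at least 20 raw counts. The median was 0.32 over the 12 above background, beside a panel median of 0.25 under the same filter. Of the 12, 10 were above 0, beside 75.9% of the panel. Over the 6 the median was 0.33 and all were above 0, beside 0.25 and 77.5% for the panel. The filters use the mean over all 7 samples, so a gene can pass through high counts in the STING group alone. Of all 27, 14 were above 0, beside 70.8% of the panel. Over all 27 the list median was 0.07, or -0.15 with TMM scaling, where 3 were higher and 1 lower. Without STING 4 also 3 were higher and 0 lower, while 5 were higher without control 3, 2 were lower without STING 3 and 1 was lower without the averaged control. The median was -0.15 without STING 1, -0.14 without the averaged control and 0.32 without control 3. Lif, a ligand of the gp130 family, had 44.2, 40.3 and 75.4 normalized counts in control and 165, 152, 70.6 and 108 in STING samples. All but STING 3 lay above the controls, and the log2 fold change was 1.20 (SE 0.36, adjusted p = 0.181). Osm, of the same family, was at 0.07 (95% interval -0.80 to 0.93). The other cytokines past the threshold were Ebi3 and Il27, the subunits of IL-27, named after their values were seen. Ebi3 was at 21.6, 10.7 and 20.5 in control and 46.3, 27.3, 39.5 and 45.7 normalized counts in STING samples, without overlap. Ebi3 had a log2 fold change of 1.16 (SE 0.37), and Il27 had a mean of 4.43 raw counts, under the background, and missed the threshold without STING 3 (unadjusted p of 0.0607) or control 1 (0.0541).

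Of the feedback inhibitors, 1 of 3 measured genes was higher, 0 with TMM scaling or the methods' test, with a median of 0.49, or 0.26 with TMM scaling. Socs1, which blocks JAK kinase activity after interferon, had 226, 252 and 259 normalized counts in control and 394, 324, 267 and 453 in STING samples. All STING samples were above all controls, STING 3 by the least. The log2 fold change of Socs1 was 0.55 (SE 0.20), 0.34 above the panel median, with an adjusted p = 0.217, and with TMM scaling it was 0.29 with an unadjusted p of 0.161. The unadjusted p of Socs1, 0.0247 over all 7 samples, was 0.0794 without STING 4, 0.0604 without STING 1 and 0.0777 without control 1. Without STING 4 the list still held 1 higher gene, Usp18, named after its values were seen, and it held 0 without STING 1 or control 1 and 2 without STING 3 or control 3. Socs3, the inhibitor of gp130 signals, was at 0.17 (95% interval -0.56 to 0.91).

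Of the targets of STAT2 with IRF9, all 17 measured had a log2 fold change above 0 with housekeeping scaling, 16 without STING 2 or the averaged control, and 15 with TMM scaling, beside 70.8% of the panel with housekeeping scaling and 47.9% with TMM scaling. Values with housekeeping scaling ran from 0.22 to 0.76 with a median of 0.41, or 0.26 without the averaged control. The 0.76 was that of Mx1, which was at or under background, so it gives no exact change. The 16 targets above background were all above 0, beside 75.9% of the panel under the same filter, with a median of 0.41. Of the 17 targets, 6 were higher at an unadjusted p under 0.05, beside 17.7% of the panel. All STING samples were above all controls in 4 of the 17, beside 16.8% of the panel. The count of 4 was 10 (58.8%) without STING 3 and 7 (41.2%) without control 3. Of the panel, 26.1% and 33.7% were then apart in either direction. The count of 6 was 5 without STING 4, 2 without STING 1, 0 with TMM scaling, 2 with positive-control scaling and 1 with the methods' test. The median with TMM scaling was 0.19, beside a panel median of -0.02. Ifi44, an interferon-induced protein, had 1508, 1064 and 1321 normalized counts in control and 2698, 2340, 1440 and 1921 in STING samples. STING 3 lay within the control range. The log2 fold change of Ifi44 was 0.69 (SE 0.23, adjusted p = 0.191), that of Bst2 was 0.46 (SE 0.17, adjusted p = 0.217), and Ifi35 had the smallest, 0.22 (95% interval -0.15 to 0.59). The unadjusted p of Bst2 was 0.0247, but 0.0674 without STING 1 and 0.0791 without control 1. With TMM scaling Ifi44 was at 0.45, Bst2 at 0.20 and Ifi35 at -0.01. Of the 13 target genes found in the promoter table, with 16 promoters, 5 held the response element motif shown for Stat2, beside 2.98% of all promoters. The letters TTCNNNGAA were in 3 of the 13, beside 7.02% of all promoters. Both counts are of genes, which can have more than 1 promoter, while the shares are of promoters, so they are not like for like.

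Log2 fold changes were above 0 in 3 of 5 STAT3 targets, 3 of 3 STAT4 targets, 2 of 2 STAT5 targets and 3 of 8 STAT6 targets, and with TMM scaling in 2, 2, 1 and 2 of them. The STAT3 targets had a median of 0.08, -0.11 without STING 4, 0.18 without control 1 and -0.18 with TMM scaling, with Myc at -0.07 (95% interval -0.44 to 0.30). Saa1, an acute phase protein made in quantity by liver, had 0.940, 3.55 and 15.4 normalized counts in control and 2.37, 1.24, 3.11 and 178 in STING samples. Its log2 fold change of 2.73 rested on STING 4, the sample with high hepatocyte markers, and turned negative without it. Raw counts of Saa1 exceeded the sample's own background only in control 3 and STING 4, so no exact change can be given. The STAT4 targets had a median of 0.22, with Il18rap at 0.22 (95% interval -0.21 to 0.65). That median was 0.47 without control 3, 0.0034 with TMM scaling and -0.015 with DESeq2 size factors. The STAT5 targets had a median of 0.54, with Bcl2 at 0.23 (95% interval -0.44 to 0.91), which is the 1 gene of the 2 above background. The median was 0.32 without STING 4 or with TMM scaling and 0.94 without control 3.

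Of the 8 STAT6 targets 1 was lower and 0 higher, with a median of -0.07 whose sign was not stable. With a sample left out it ran from -0.31 without the averaged control to 0.29 without control 3, with -0.21 without STING 4, and it was -0.25 with TMM scaling, 0.01 with limma and 0.03 with all 8 tumors. Chil3, a chitinase-like protein of alternatively activated macrophages, had 230.3, 313 and 471 normalized counts in control and 96.1, 116, 320 and 109 in STING samples. STING samples 1, 2 and 4 lay below all controls and STING 3 within them. On the log2 scale the change of Chil3 was -1.08 (SE 0.44), with an unadjusted p of 0.0381 and an adjusted p = 0.236. Its unadjusted p was 0.0761 without STING 4, 0.0871 without STING 1, 0.0943 without STING 2, 0.164 without control 3, 0.0557 without the averaged control and 0.0949 with the methods' test, and the list then held 0 genes past the threshold in each case with a sample left out. With a sample left out the log2 fold change of Chil3 ran from -1.66 without STING 3, the high STING sample, to -0.76 without control 3. Gata3 stood at 0.30 (95% interval -0.34 to 0.94).

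**Figure D4:**
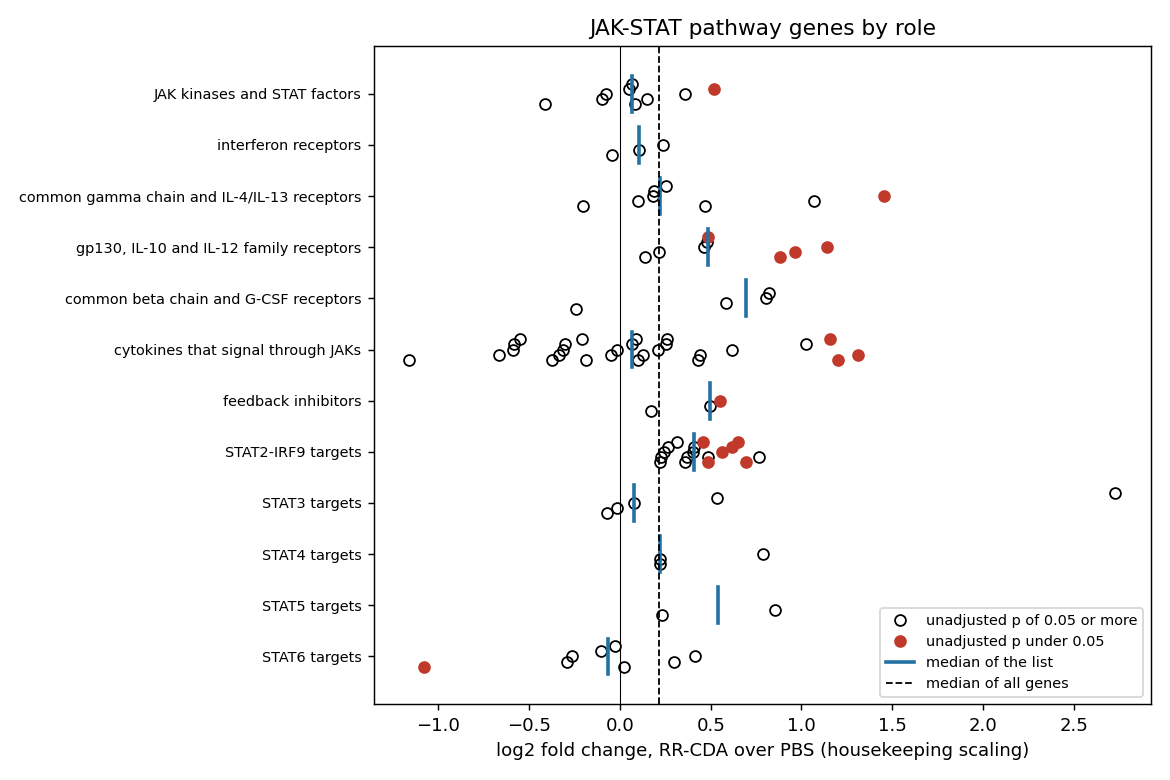
Log2 fold change, RR-CDA over PBS with housekeeping scaling (horizontal axis), of each measured gene in the members and in 11 pathway lists, filled where the unadjusted p was under 0.05, with list medians (blue) and the median of all genes (dashed, 0.21). All 17 targets of STAT2 with IRF9 lie above 0 (15 with TMM scaling, not drawn), Mx1 among them at or under background. Over the lists 15 filled points are on the positive side against 1 on the negative side (4 and 2 with TMM scaling, not drawn).

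Cell type markers were summed beside the members. Ptprc, the pan-leukocyte marker, had 110, 42.6 and 113 normalized counts in control and 261, 169, 142 and 272 in STING samples. All STING samples exceeded all controls, and the log2 fold change was 1.24 (SE 0.38, adjusted p = 0.181). The 10 T cell markers summed to 187, 121 and 221 in control and 431, 234, 241 and 409 in STING samples, with Cd3d most abundant in the controls and STING 3, Cd3g in STING 1, 2 and 4, and Cd2, Cd4, Cd5 and Cd6 at or under background. Of the 10 T cell markers, 4 were higher at an unadjusted p under 0.05, beside 17.7% of the panel. The count was 1 without STING 4, STING 1 or the averaged control and 2 without control 1. It was 3 with TMM scaling, 1 with total-count scaling and 1 with the methods' test. STING 1 and STING 4 were the samples with most leukocyte and T cell marker RNA. They were also the STING samples with most Stat2, Jak2, Jak3, Stat3, Il7r, Il10ra, Il6st, Il12rb1, Ebi3, Socs1 and Bst2, and the part of leukocyte content in those values was not tested. Other genes had another order. Among STING samples Jak1 and Stat6 were highest in STING 2, Stat5b and Tyk2 were highest in STING 3, and Stat4 was lowest in STING 4. Lif and Ifi44 were higher in STING 2 than in STING 4.

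The 4 measured NK cell markers, led by Klrd1, summed to 257, 181 and 244 in control and 367, 205, 260 and 379 in STING samples. Without Klrd1 the other 3 summed to 66.8, 62.8 and 67.4 in control and 59.3, 52.2, 66.5 and 72.6 in STING samples, so the higher sums lay in that gene. The 8 macrophage and monocyte markers, led by Cd68, summed to 1679, 1053 and 2447 in control and 2396, 1594, 1985 and 2310 in STING samples, within the control range. The markers in that sum went opposite ways: by unadjusted p, 1 marker passed 0.05 in the upward and 2 in the downward direction, also without STING 4 and with TMM scaling. The downward count was 0 without control 3 and 1 without STING 2 or STING 3, and the upward count 2 without the averaged control. With the methods' test 2 passed upward and 0 downward. Emr1, which encodes the macrophage antigen F4/80, had 157, 60.4 and 240.1 normalized counts in control and 502, 314, 260.6 and 427 in STING samples, without overlap. The scavenger receptor genes Cd163 and Marco were the lower ones, and Marco had 108, 172 and 474 in control and 137, 29.8, 109 and 125 in STING samples, overlapping. These 3 genes were named after their values were seen.

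The 3 dendritic cell markers summed to 19.7, 23.7 and 25.6 in control and 41.5, 28.6, 34.3 and 36.8 in STING samples, without overlap, with Xcr1 under background. The difference lay in 1 gene: Itgax, which encodes CD11c, was at 2.82, 3.55 and 5.86 in control and 23.7, 14.9, 8.31 and 22.4 in STING samples. Raw counts of Itgax were under the sample's own background in every control and in STING 3. Its mean exceeded background only through STING 1, 2 and 4, so the size of the difference cannot be given. Flt3 was the most abundant of the 3 in the controls and STING 3, and Itgax in the others. Flt3 and Xcr1 together summed to 16.9, 20.1 and 19.8 in control and 17.8, 13.7, 26.0 and 14.3 in STING samples, overlapping. The 4 endothelial markers, led by Pecam1, summed to 242, 332 and 298 in control and 403, 364, 429.9 and 388 in STING samples, also without overlap. Pecam1 itself overlapped between groups, at 110, 160 and 139 in control and 171, 129, 210 and 140 in STING samples, and 1 of the 4 genes was apart, Kdr, a receptor of VEGF. Without STING 2 or the averaged control, 2 of the 4 genes were apart. The 3 genes without Kdr summed to 205, 300 and 237 in control and 319, 248, 363 and 292 in STING samples, overlapping. With TMM scaling 2 of the 4 endothelial markers had a log2 fold change above 0, with a median of 0.08. Cd3g, Kdr and Flt3 were named after their values were seen.

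The remaining sums overlapped between groups. Neutrophil markers, led by S100a8 and with Mpo under background, averaged 416 ± 132 (SD, n = 3) in control and 476 ± 159 (SD, n = 4) in STING samples. Fibroblast and pericyte markers, led by Fn1, averaged 6318 ± 410.2 and 6750 ± 715. Within them Col1a1, a collagen gene, was the 1 of 4 past an unadjusted p of 0.05, at 953, 545 and 1402 normalized counts in control and 1682, 1873, 1154 and 1718 in STING samples, overlapping. Col1a1 passed in 11 of 21 alternatives. It missed the threshold without STING 1, STING 2, STING 4, control 1 or the averaged control, and with the methods' test. In edgeR it also missed it with TMM scaling (unadjusted p of 0.0665), DESeq2 size factors (0.0791), total-count scaling and positive-control scaling. Pdgfrb was apart in the downward direction, at 126, 134 and 113 in control and 109, 98.1, 90.3 and 105 in STING samples, and was the 1 gene past the threshold with TMM scaling. Both were named after their values were seen. B cell sums were 28.6 to 63.0 over all samples, led by Cd79b with the other 5 genes under background, and mast cell sums were 11.3 to 26.1, led by Kit with Ms4a2 under background. The 3 epithelial markers, led by Cdh1 in 5 of 7 samples, summed to 29.8 to 63.7, and raw counts of Cdh1 itself were 9 to 48 in these carcinoma-derived tumors. Cdh1 had 32.9, 20.1 and 35.1 normalized counts in control and 16.6, 11.2, 22.8 and 21.5 in STING samples, overlapping. None of the 3 passed an unadjusted p of 0.05, but Cdh1 was lower past it with TMM scaling, DESeq2 size factors or total count and without the averaged control. The hepatocyte sum of STING 4 was led by Ambp, at 775 normalized counts in STING 4 and 2.48 to 11.9 in the other samples. Without STING 4 the log2 fold change of Stat2 was 0.51.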

How the data were processed

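The authors measured tumor RNA on the NanoString nCounter PanCancer Immune mouse panel and deposited raw counts of 784 probes per sample. Their methods name nSolver software and housekeeping normalization. Here counts were scaled by the geometric mean of the 20 housekeeping genes. Groups and replicate numbers came from the sample labels, dose and age from the study's methods, the day of the first injection from the labels, and the number of injections and days to collection from the study's account of its treatment. Members and gene lists were chosen with earlier results of these data known.

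The 750 genes were tested with edgeR 4.0.16 (glmQLFit, glmQLFTest, R 4.3.3) and Benjamini-Hochberg adjustment over all 750. Alternatives used DESeq2 1.42.0, limma 3.58.1, the methods' test on normalized counts, other scalings, filters and sample sets. Ratios used an exact permutation test, two-sided, with 35 arrangements of 3 and 4 samples (scipy 1.17.1). The fit and the permutation test were tested on simulated data.

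Named genes were all members, the largest rise and fall of each pathway list among genes with a mean of at least 20 counts, Socs1, Socs3 and Il12rb2, and the nearest profile to each member. Of the markers, 1 was matched through an older symbol. Promoters came from RefSeq.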

Additional observations from a re-analysis of the deposited data

Results flagged for a closer look

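In each gene named, the highest and the lowest of the 4 STING samples were compared with the nearest other sample, and the gap divided by the whole range of the group. Of 55 genes, 4 exceeded Dixon's 95% critical value. Chance flags about 1 in 20, but that rate does not hold for genes named by their values in these same samples. Saa1 was named as the largest rise of its list and Ambp as the leader of the hepatocyte sum of STING 4. Both values rested on STING 4, so these flags followed from the choice of genes. Ambp was far higher in STING 4 than in the others, with a gap of 0.988 of the range, and Saa1 likewise with 0.989. Gata3 was lowest in STING 4, with a gap of 0.848. Chil3 was highest in STING 3, with a gap of 0.913. None of the 9 JAK and STAT members exceeded it. The causes were not tested.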

How the results depend on the processing

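Stat2 kept its direction in every alternative run. For the 9 members together, the direction and the side of an unadjusted p of 0.05 were kept in 163 of the 188 values that carried a test. Of the others 16 changed direction, 6 missed the threshold and 3 passed it.

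The 0 genes called over the panel became 52 with the Wald test of DESeq2, and 0 to 7 with a sample left out. Genes at an unadjusted p under 0.05 numbered 84 to 160 with a sample left out, against 143. Members past it numbered 0 with total-count scaling and 0 with positive-control scaling, and 0 to 2 with a sample left out. Pathway genes past it, 16 in all, numbered 6 with TMM scaling, 6 with DESeq2 size factors, 5 with total count, 7 with positive controls, 8 with the methods' test, 25 with all 8 tumors and 5 to 21 with a sample left out. No pair ratio passed after adjustment in any alternative, but the exact test left little room to: at least 21 of 36 pairs would have to reach its smallest p, 0.0286 over all samples, and with a sample left out it cannot go below 0.0667 or 0.1.

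With TMM scaling the log2 fold change turned negative for Jak3 (-0.12), Tyk2 (-0.18), Stat5b (-0.18), Stat6 (-0.17), Ifngr1 (-0.0133), Il6ra (-0.0495), Osm (-0.15), Socs3 (-0.0520), Ifi35 (-0.00519), Il18rap (-0.0515) and Bcl2 (-0.0101). With DESeq2 size factors the same genes were at -0.14, -0.20, -0.19, -0.18, -0.0262, -0.0640, -0.17, -0.0705, -0.0194, -0.0637 and -0.0260. With total count Jak3 was at -0.0793, Tyk2 -0.16, Stat5b -0.12, Stat6 -0.11, Osm -0.15 and Socs3 -0.0456. Ifnar2 was 0.0108 with positive controls. Relative to the geometric mean of the other 8 members, a scaling chosen after seeing the data, with no test, Tyk2 was at -0.0141, the 1 member of 9 that changed direction, and Stat2 at 0.51. TMM, DESeq2 size factors and total count each put the panel median near 0. For TMM and DESeq2 size factors this shift is part of how they are built. Total count sets the sum over genes and not the median, so its median of 0.0077 was an observed value.

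With a sample left out, values ran from -0.18 to 0.0080 for Jak1, -0.0727 to 0.26 for Jak3, -0.0476 to 0.15 for Tyk2, -0.0873 to 0.0233 for Ifnar2, -0.21 to 0.41 for Osm, -1.59 to 4.38 for Saa1 and -0.16 to 0.0922 for Myc. The cause was not tested.

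Samples with the same replicate number did not deviate together, with correlations of -0.28 to -0.06, and 0 of 4 control samples correlated best with the STING sample of their number. With the number as a block over all 8 tumors, 0 genes were called, 172 had an unadjusted p under 0.05, among them 1 member and 19 pathway genes, Stat2 was at 0.56 and the median of the STAT6 targets turned to 0.19.

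Precision was limited by groups of 3 and 4 samples and, for Stat4 and Tyk2, by low counts.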
